A study of Rattus norvegicus with 15 samples.

Results

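The tiRNAs of the rat left ventricle, the fragments that arise when a transfer RNA (tRNA) is cut in its anticodon loop, were examined in 15 animals. They were taken as the entries of the deposited table whose name starts with tiRNA-, which gave 49 of the 714 tRNA-derived small RNAs (tsRNAs) listed. The other 665 entries are named tRF, the tRNA-derived fragments that arise from cuts elsewhere in the molecule. In mammalian cells some tiRNAs are produced by angiogenin, a secreted ribonuclease that is held in check by an inhibitor. Angiogenin cuts mature tRNAs during oxidative, hypoxic and other stress. The cut leaves a product from the 5′ side and a product from the 3′ side of the tRNA, and some 5′ products are known from human cells to repress translation and to take part in stress granule assembly. A name in the table gives the amino acid and anticodon of the parent and a running number, but not the side of the tRNA from which a product came.

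The series asks what myocardial ischemia and prior caloric restriction change among tsRNAs. All animals were Sprague-Dawley rats and the tissue was the left heart ventricle. The control group (n = 5) was untreated, and the second group (n = 5) received isoproterenol, which stimulates beta-adrenergic receptors and, in excess, injures heart muscle. The last group (n = 5), called restricted here, was put on caloric restriction and then given isoproterenol. No group was restricted without the drug, so restriction itself cannot be told apart from its influence on how the heart responded to isoproterenol. The sources used here do not give age, sex, dose or the length of the restriction. The table holds tRNA fragments alone, so the tissue could not be checked against marker genes. Ventricle is a mixture of cells, and fewer cells of a type and less RNA per cell cannot be told apart.

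The 49 tiRNAs came from 19 amino acids and 30 isoacceptors (tRNAs with the same amino acid and anticodon), and 522 tRFs shared these 30 isoacceptors. RefSeq lists tRNA genes for 29 of the 30 in the GRCr8 assembly, from 2 genes for Leu-TAA to 43 for Val-AAC. Only genes whose symbol spells out the amino acid and anticodon were counted. Ile-GAT, an anticodon that mitochondrial tRNAs also have, had no match among these symbols. These counts are per isoacceptor, and the gene or genes from which a given tiRNA came are not known here. The name does not separate a mitochondrial from a nuclear parent with the same anticodon. Sequences of the tiRNAs were not used here, and tiRNAs of 1 isoacceptor that differ by a few bases are uncertain as single species.

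Levels are given in CPM, the reads of a tsRNA per 1000000 of all reads that the authors counted for its library. The values were whole multiples of 1 read, which gave totals from 106082 to 1128887 reads, and 1 read was worth 0.886 to 9.43 CPM. The tiRNAs received 1969 to 74413 reads per library, with a median of 5 to 16 reads per tiRNA, so the lower members rest on few reads. Listed tsRNAs made up 24.2% to 35.7% of the total in control, 49.4% to 78.7% in isoproterenol and 37.0% to 67.3% in restricted libraries. The sources used here do not say what made up the rest, and a change of level in CPM depends on it. The level of a typical tsRNA also differed between libraries of 1 group: median-of-ratios factors, which place it on 1 scale, ran from 0.175 to 0.809 in control, from 0.728 to 2.42 in isoproterenol and from 1.05 to 2.37 in restricted libraries. The lowest factor was that of control replicate 4, the library with the largest total, and the highest that of isoproterenol replicate 3, with the smallest. All pairs of libraries of 1 group differed by more than sampling noise (chi-square per degree of freedom at least 7.52).

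In control ventricles the tiRNA pool was dominated by 1 member. tiRNA-Ser-GCT-001, from the serine tRNA that reads AGC and AGU codons, held 53.1% to 80.6% of all tiRNA reads, with a mean of 60.2% ± 11.6 (SD, n = 5). It was followed by tiRNA-Lys-CTT-002 at 4374 ± 395 CPM, tiRNA-Gly-GCC-002 at 2977 ± 791 CPM and tiRNA-Gln-TTG-003 at 1169 ± 507 CPM. Over all 15 libraries the mean was at least 100 CPM for 19 tiRNAs, between 10 and 100 CPM for 23 and under 10 CPM for 7, and 29 were detected in every library. All 49 passed the filter used for testing, at least 1 CPM in at least 5 libraries.

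**Figure D1:**
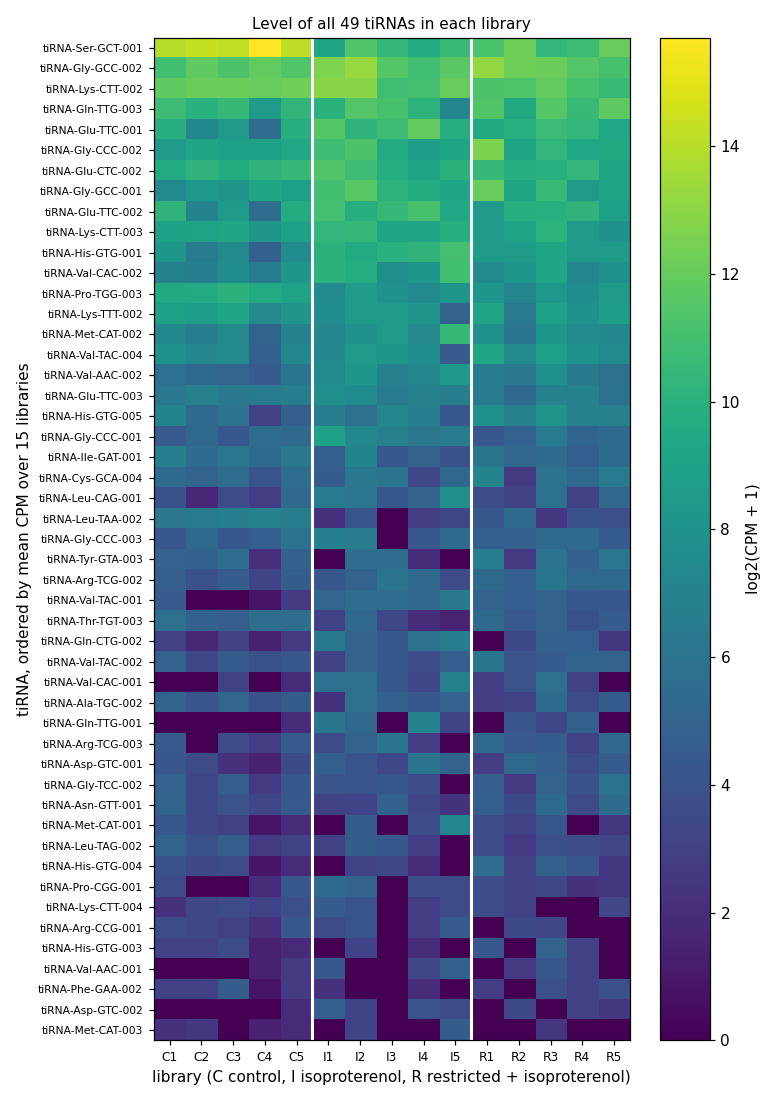
Level of each of the 49 tiRNAs (rows, ordered by mean CPM) in each of the 15 libraries (columns, C control, I isoproterenol, R restricted plus isoproterenol, white lines between groups), as log2(CPM + 1) in colour. The top row, tiRNA-Ser-GCT-001, is brightest in the 5 control libraries, and the bottom rows hold many libraries at 0.

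The summed tiRNA level was 30925, 34364, 33190.1, 65917 and 34332.5 CPM in control replicates 1 to 5. It was 33352, 38901, 18561, 17647 and 21422 CPM in the isoproterenol group and 33830.2, 19410.2, 24765, 15934 and 17683 CPM in the restricted group. The groups overlapped, and control replicate 4 stood above all others. Without tiRNA-Ser-GCT-001 the order of the groups turned. The other 48 tiRNAs then summed to 14469 ± 1168 CPM in control, 24578 ± 9194 CPM in isoproterenol and 19395 ± 7835 CPM in restricted ventricles (SD, n = 5 each). All 5 isoproterenol libraries lay above every control library in this sum, while the restricted libraries overlapped with the controls.

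As a share of the listed tsRNA reads, tiRNAs made up 14.5% ± 6.81 in control ventricles. With isoproterenol they made up 4.42% ± 2.01, and with prior restriction 4.84% ± 2.47. Every library of both treated groups was below every control library. Without tiRNA-Ser-GCT-001 the shares were 5.68% ± 0.821, 4.17% ± 1.88 and 4.25% ± 2.46, and the groups overlapped. Isoproterenol differed from control by -10.04 percentage points with tiRNA-Ser-GCT-001 and by -1.51 points without it. The shares were not tested.

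**Figure D2:**
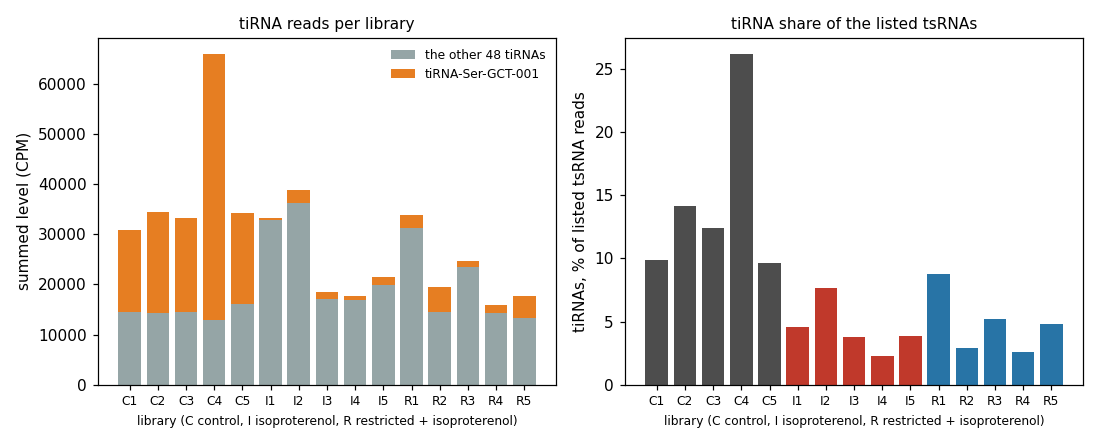
Left, summed tiRNA level in CPM for each library, split into tiRNA-Ser-GCT-001 and the other 48 tiRNAs; right, tiRNA reads as a percentage of listed tsRNA reads in the same libraries (C control, I isoproterenol, R restricted plus isoproterenol). The serine tiRNA fills 53.1% to 80.6% of the control bars and at most 24.9% of any treated bar, and the tiRNA share of control replicate 4 reaches 26.2%.

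With the serine tiRNA lower, the makeup of the pool shifted. Glycine tiRNAs held 10.3% ± 2.45 of tiRNA reads in control, 28.2% ± 9.03 in isoproterenol and 33.2% ± 14.6 in the restricted group. Glutamate tiRNAs went from 6.1% ± 3.3 to 21.6% ± 11.1 and 14.6% ± 6.63 in the same order, and lysine tiRNAs from 14.4% ± 4.15 to 21.6% ± 5.54 and 16.1% ± 4.68. Histidine tiRNAs held 0.679% ± 0.539, 5.9% ± 3.11 and 2.92% ± 0.641, and valine tiRNAs 1.13% ± 0.575, 5.78% ± 3.48 and 3.68% ± 1.2. These shares sum to a whole, so a lower share of serine raises the others, and they were not tested.

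Isoproterenol was compared with control to ask which tiRNAs differ in the ventricle given the drug. Of the 49 tiRNAs, 14 rose and 4 fell (limma on log2(CPM + 1), Benjamini-Hochberg adjusted p under 0.05 over 707 tsRNAs). That is 28.6% higher and 8.16% lower, against 35.5% and 12.4% of all tsRNAs tested. The median difference was 0.41 on the log2 scale for tiRNAs and 1.26 for all tsRNAs, so a tiRNA at 0 on this scale stood below a typical tsRNA. When each library was scaled by median-of-ratios factors, the median of all tsRNAs was 0.15, and 6 tiRNAs were higher and 14 lower (16.1% and 19.7% of all tsRNAs). With the listed reads scaled to 1 total, 6 were higher and 8 lower (14% and 17% of all tsRNAs), and with the log2 library total as a covariate 13 and 12 (23.2% and 14.3%). On the recovered reads, DESeq2 called 8 of 47 higher and 11 lower (16% and 18.8%). edgeR called 10 of 28 higher and 4 lower with the authors' totals (53.6% and 14.4%), and 1 and 7 with TMM factors (21.3% and 23.1%). Whether the tiRNA share lay above or below that of all tsRNAs depended on these settings. The share lower was above it with median-of-ratios factors (28.6%), the covariate (24.5%), DESeq2 (23.4%) and TMM factors (25%). The share higher was above it with the covariate (26.5%) and DESeq2 (17%), and below it with the others. Differences are therefore given on the authors' scale, and relative to the median of all tsRNAs the 14 rises ran from 0.40 for tiRNA-Met-CAT-002 to 2.98 for tiRNA-Val-CAC-001. In 6 tiRNAs every isoproterenol library lay above every control library, and in 3 below, against 19% and 8.49% of all tsRNAs.

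The 4 tiRNAs that fell did so under each scaling, pseudocount, filter and test tried and without any single library. tiRNA-Ser-GCT-001 was at 16439.8, 19983, 18645, 53100.1 and 18217 CPM in control replicates 1 to 5. It was at 590.2, 2711, 1423, 767 and 1502 CPM in the isoproterenol group and at 2478, 4832, 1319.5, 1701 and 4317 CPM in the restricted group. Control replicate 4 stood far above the other controls, yet the lowest control lay above the highest treated library. The log2 difference was -4.22 ± 0.51 (SE) between isoproterenol and control (limma, adjusted p = 6.15e-09), which is -5.48 relative to the median of all tsRNAs. Leaving out 1 library at a time moved it between -4.51 and -3.91. From first place among tiRNAs in control it moved to place 8 in isoproterenol and place 2 in restricted ventricles.

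tiRNA-Leu-TAA-002, from a leucine isoacceptor that reads UUA codons, was at 76.9, 89.6, 104, 119 and 97 CPM in control replicates 1 to 5. In the isoproterenol group it was at 3.71, 15.6, 0, 6.09 and 9.72 CPM and in the restricted group at 18.3, 40.2, 4.5, 14.5 and 13.5 CPM. Every treated library was below every control library. The log2 difference was -4.10 ± 0.73 (limma, adjusted p = 1.31e-05), from 258 reads in the 5 controls and 10 in the 5 isoproterenol libraries.

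tiRNA-Pro-TGG-003, from a proline tRNA, was at 743, 759, 1083, 757 and 529 CPM in control and at 171, 398, 245, 183 and 295 CPM in isoproterenol libraries. In the restricted group it was at 299, 141, 329, 188 and 373 CPM, and neither treated group overlapped with the controls. The log2 difference between isoproterenol and control was -1.61 ± 0.51 (limma, adjusted p = 0.00871). tiRNA-Thr-TGT-003, from a threonine tRNA, was at 54.9, 28.3, 26, 47.8 and 47.2 CPM in control and 7.42, 39.1, 9.43, 3.04 and 1.94 CPM in isoproterenol libraries. Its difference was -2.26 ± 0.71 (limma, adjusted p = 0.00824). For this member the groups overlapped, since isoproterenol replicate 2 stood at 39.1 CPM among the controls.

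Among the tRFs of the same parents, 6 of 18 rose and 7 fell for Ser-GCT, 2 and 7 of 20 for Leu-TAA, 0 and 5 of 12 for Pro-TGG, and 6 and 2 of 16 for Thr-TGT (limma, isoproterenol versus control). Of all tsRNAs, 35.5% rose and 12.4% fell. The summed tRF level of Ser-GCT was 6211 ± 1761 CPM in control, 1129 ± 714 CPM in isoproterenol and 1857 ± 336 CPM in restricted ventricles. That of Leu-TAA was 2289 ± 905, 549 ± 190.0 and 574 ± 136 CPM, and that of Pro-TGG 4937 ± 865, 1778 ± 806 and 1526 ± 503 CPM. For Thr-TGT the tRF sum was instead 931 ± 328, 1643 ± 1266 and 2221 ± 801 CPM, while its tiRNA fell. These sums were not tested.

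Of all tsRNAs tested, 35.5% rose with isoproterenol. The 14 tiRNAs that rose were 4 of the 7 of valine, 2 of 4 of glutamate, 2 of 3 of glutamine and 2 of 6 of glycine. They also held 1 of 4 of histidine, 1 of 2 of aspartate and 1 of 3 each of leucine and methionine. The difference passed for 5 of them under each scaling, pseudocount, filter and test that was run on them and without any single library: tiRNA-Val-CAC-001, tiRNA-Val-TAC-001, tiRNA-Gln-TTG-001, tiRNA-His-GTG-001 and tiRNA-Gln-CTG-002. Of these, edgeR tested tiRNA-His-GTG-001 alone, since the others had too few reads for its filter. tiRNA-His-GTG-001, from a histidine tRNA, was the most abundant of the 5. A 5′ product of a histidine tRNA is known from human breast and prostate cancer cells, where it depends on sex hormone signalling. Whether tiRNA-His-GTG-001 is its rat counterpart is not known here, since the name gives neither the side nor a mitochondrial or nuclear parent. The level of tiRNA-His-GTG-001 was 315, 87.2, 171, 28.3 and 189 CPM in control, 1065, 781, 1056, 1175 and 2116 CPM in isoproterenol and 378, 410.0, 599, 355 and 391 CPM in restricted libraries. The 3 groups did not overlap, with isoproterenol highest and the restricted group between. Isoproterenol differed from control by 3.27 ± 0.55 on the log2 scale (limma, adjusted p = 5.94e-06), 2.01 above the median of all tsRNAs.

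The valine tiRNAs that rose were of 3 anticodons. tiRNA-Val-TAC-001 was at 22, 0, 0, 0.886 and 5.24 CPM in control, 33.4, 46.9, 47.1, 42.6 and 77.7 CPM in isoproterenol and 30.5, 25.2, 31.5, 18.1 and 18 CPM in restricted libraries. Isoproterenol libraries lay above every library of both other groups, control replicate 1 lay within the range of the restricted group, and the other controls were lower. The difference from control was 3.99 ± 0.76 (limma, adjusted p = 4.14e-05).

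tiRNA-Val-CAC-001 was at 0, 0, 7.42, 0 and 2.62 CPM in control and 52, 54.7, 18.9, 9.13 and 120.5 CPM in isoproterenol libraries. It had 3 reads in all controls and 88 in the isoproterenol libraries, a ratio of 54.0 per library total (95% counting interval 17.9 to 267), and the groups did not overlap. Isoproterenol replicate 5 held 62 of the 88 reads, and without it the ratio was 25.8. Without control replicate 4 it was 29.4, and without control replicate 3, which held 2 of the 3 control reads, 144. Its difference was 4.23 ± 0.90 (limma, adjusted p = 1.62e-04). tiRNA-Val-CAC-002 rose by 2.12 ± 0.58 (limma, adjusted p = 0.00245), from 167 ± 92 to 883 ± 701 CPM. tiRNA-Val-AAC-002 rose by 2.29 ± 0.58 (limma, adjusted p = 0.00132), from 42.4 ± 18 to 215 ± 101 CPM, with no overlap. Neither of these last 2 passed with median-of-ratios scaling.

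Both glutamine tiRNAs that rose were scarce in control. tiRNA-Gln-CTG-002 was at 7.32, 2.36, 7.42, 1.77 and 5.24 CPM in control, 81.7, 31.3, 18.9, 54.8 and 97.2 CPM in isoproterenol and 0, 10.1, 27, 25.3 and 4.5 CPM in restricted libraries. Control and isoproterenol did not overlap, and the difference was 3.22 ± 0.80 (limma, adjusted p = 0.00104). tiRNA-Gln-TTG-001 was at 0 in 4 controls and at 66.8, 39.1, 0, 131 and 7.77 CPM in isoproterenol libraries. It had 1 read in all controls and 70 in the isoproterenol libraries, a ratio of 129 (95% counting interval 22.4 to 5158). The ratio was 65.7 without isoproterenol replicate 4, 197 without isoproterenol replicate 5 and 70.1 without control replicate 4, and the single control read was in replicate 5. Its difference was 3.95 ± 1.04 (limma, adjusted p = 0.00187). The groups overlapped at 0, and isoproterenol replicates 1, 2 and 4 held most of its reads. Counting intervals treat amplified reads as independent molecules and so cover counting error only.

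The remaining rises did not pass under every alternative. The most abundant of them over all libraries was tiRNA-Glu-TTC-001, from a glutamate tRNA. It was at 941, 160.3, 349, 47.8 and 907 CPM in control, 2992, 1172, 1791, 3901 and 873 CPM in isoproterenol and 733, 1004, 1689, 1357 and 657 CPM in restricted libraries. Controls varied widely, from 47.8 CPM in replicate 4 to 941 CPM in replicate 1, and overlapped with the isoproterenol libraries. The difference was 2.63 ± 0.60 (limma, adjusted p = 3.88e-04). tiRNA-Glu-TTC-002 differed by 2.14 ± 0.61 (limma, adjusted p = 0.00373).

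Of the glycine tiRNAs, tiRNA-Gly-GCC-001 rose from 372 ± 174 to 1542 ± 1063 CPM, by 1.92 ± 0.58 (limma, adjusted p = 0.00609). With DESeq2 and edgeR's TMM factors it did not pass, and its lowest difference over the alternatives was 0.00045. tiRNA-Gly-CCC-001 was at 22, 37.7, 18.6, 46.9 and 41.9 CPM in control and 505, 156, 113, 73 and 83.6 CPM in isoproterenol libraries, with no overlap and isoproterenol replicate 1 far above the others. Its difference was 2.13 ± 0.63 (limma, adjusted p = 0.00511).

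The other rises were of tiRNA-Leu-CAG-001 (2.43 ± 0.76, limma adjusted p = 0.00771), tiRNA-Asp-GTC-002 (2.74 ± 0.97, adjusted p = 0.0179) and tiRNA-Met-CAT-002 (1.65 ± 0.61, adjusted p = 0.0224). tiRNA-Asp-GTC-002 rested on 1 read in control and 19 in isoproterenol libraries, a ratio of 35.0 (95% counting interval 5.56 to 1452), and did not pass without isoproterenol replicate 1 (adjusted p = 0.061). Its ratio was 19.0 without control replicate 4, and its control read was in replicate 5. tiRNA-Met-CAT-002 was at 152, 242, 349, 167 and 1479 CPM in isoproterenol libraries, and it did not pass without replicate 5, the highest of them, or without control replicate 4 (adjusted p at most 0.0991, difference at least 1.10 with any 1 library left out).

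**Figure D3:**
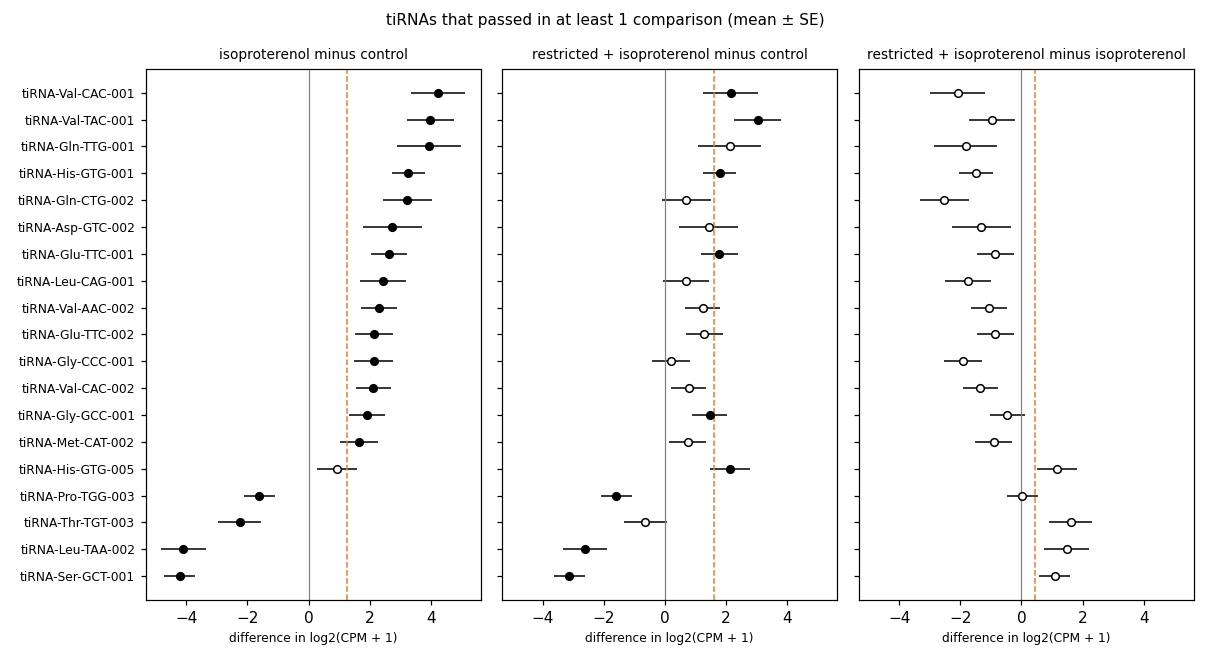
Difference in log2(CPM + 1) between groups (points, bars ± SE) for the 19 tiRNAs that passed in at least 1 comparison of levels (limma, authors' scale), in 3 panels for isoproterenol minus control, restricted plus isoproterenol minus control, and restricted plus isoproterenol minus isoproterenol. Filled points have an adjusted p under 0.05, and the dashed line marks the median of all tsRNAs (1.26, 1.60 and 0.44). tiRNA-Ser-GCT-001 and tiRNA-Leu-TAA-002 lie farthest to the left in both comparisons with control, and no point is filled in the last panel.

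Among the 10 most abundant tiRNAs, 6 passed in no comparison of levels on the authors' scale (limma). tiRNA-Gly-GCC-002 was at 2006, 3691, 2523, 3876 and 2789 CPM in control, 6596, 9876, 2998, 1917 and 3267 CPM in isoproterenol and 9205, 4794, 4576, 2935 and 2267 CPM in restricted libraries (limma, adjusted p = 0.389 for isoproterenol versus control). The 5′ product of this glycine tRNA is among the most abundant tsRNAs known from mouse sperm and serum. Treated libraries were more scattered than controls, with isoproterenol replicates 1 and 2 and restricted replicate 1 highest.

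tiRNA-Lys-CTT-002, whose lysine tRNA reads AAG codons, was at 3778, 4488, 4542, 4233 and 4830.1 CPM in control, 7695, 7688, 1857, 2075 and 4262 CPM in isoproterenol and 2564, 2631, 3963, 2229 and 1601 CPM in restricted libraries (limma, adjusted p = 0.824 and, for restricted versus control, 0.149). The 5 controls lay within 3778 to 4830 CPM, and the isoproterenol libraries fell on both sides of them. tiRNA-Gln-TTG-003 stood at 1169 ± 507, 1495 ± 1074 and 2341 ± 1146 CPM in control, isoproterenol and restricted ventricles. tiRNA-Gly-CCC-002 stood at 522 ± 122, 1251 ± 927 and 1913 ± 2448 CPM, the last mean raised by 6263 CPM in restricted replicate 1. tiRNA-Glu-CTC-002 stood at 1073 ± 275, 1404 ± 899 and 1048 ± 338 CPM, and tiRNA-Lys-CTT-003 at 484 ± 114, 950.1 ± 395 and 529 ± 347 CPM. Their adjusted p-values for isoproterenol versus control were 0.985, 0.145, 0.771 and 0.136 (limma). With median-of-ratios scaling 4 of the 6 passed as lower, tiRNA-Gln-TTG-003 in isoproterenol and tiRNA-Lys-CTT-002, tiRNA-Lys-CTT-003 and tiRNA-Glu-CTC-002 in restricted ventricles, against control (limma, adjusted p = 0.040, 0.0022, 0.011 and 0.020).

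Restricted ventricles were next compared with control, the same 5 libraries that served as controls for isoproterenol. Of the 49 tiRNAs, 6 rose and 3 fell (limma, adjusted p under 0.05), which is 12.2% and 6.12%, against 47.7% and 10.7% of all tsRNAs. The share that rose was below that of all tsRNAs, and the median difference was 0.68 for tiRNAs against 1.60 for all. With median-of-ratios scaling, which put the median of all tsRNAs at 0.24, 14 tiRNAs were lower, among them all 3 of Lys-CTT, and 0 higher (20.7% and 15.1% of all tsRNAs). With the listed reads scaled to 1 total, 5 were lower and 1 higher (14.3% and 28%), and with the library total as a covariate 5 and 3 (10.9% and 36.9%). DESeq2 called 17 of 47 lower and 0 higher (22.6% and 15.2%). edgeR called 3 of 28 lower and 5 higher with the authors' totals (14.1% and 61.1%), and 12 and 0 with TMM factors (25.4% and 22.2%). The groups did not overlap for 1 higher and 3 lower tiRNAs, against 31.1% and 9.19% of all tsRNAs.

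The 3 that fell were again tiRNA-Ser-GCT-001, tiRNA-Leu-TAA-002 and tiRNA-Pro-TGG-003, and they passed under every alternative and without any single library. Their log2 differences were -3.13 ± 0.51, -2.62 ± 0.73 and -1.59 ± 0.51 (limma, adjusted p = 4.10e-06, 0.00245 and 0.00754). For each of the 3 the restricted and control libraries did not overlap. tiRNA-Thr-TGT-003, the remaining member that fell with isoproterenol, was at 42.7, 20.1, 31.5, 14.5 and 22.5 CPM in restricted libraries and did not pass against control (difference -0.65, limma adjusted p = 0.43).

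The 6 that rose against control were tiRNA-Val-TAC-001 (3.03 ± 0.76), tiRNA-Val-CAC-001 (2.15 ± 0.90), tiRNA-His-GTG-005 (2.11 ± 0.66), tiRNA-His-GTG-001 (1.79 ± 0.55), tiRNA-Glu-TTC-001 (1.78 ± 0.60) and tiRNA-Gly-GCC-001 (1.46 ± 0.58). Their adjusted p-values by limma ran from 0.00117 for the first to 0.036 for tiRNA-Val-CAC-001. Relative to the median of all tsRNAs the differences ran from -0.14 for tiRNA-Gly-GCC-001 to 1.43 for tiRNA-Val-TAC-001. None of the 6 passed with median-of-ratios scaling, and tiRNA-Glu-TTC-001 and tiRNA-Gly-GCC-001 changed sign under 1 or more scalings. With 1 library left out at a time, tiRNA-Val-CAC-001 passed in 4 of 10 fits (differences 1.48 to 2.93), tiRNA-Gly-GCC-001 in 6 (0.92 to 1.81) and tiRNA-Glu-TTC-001 in 9, the exception being without control replicate 4 (adjusted p = 0.0736). tiRNA-His-GTG-005, the member not called for isoproterenol, was at 132, 40.1, 59.4, 7.09 and 26.2 CPM in control, 96.5, 54.7, 151, 109.6 and 19.4 CPM in isoproterenol and 238, 121, 284, 116 and 112 CPM in restricted libraries. Control replicate 1 overlapped with the restricted group, whose lowest library was at 112 CPM.

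Restriction before isoproterenol was compared with isoproterenol alone to ask whether it altered the tiRNAs of the injured ventricle. None of the 49 tiRNAs, and 0% of the 707 tsRNAs, passed (limma, adjusted p under 0.05). At an unadjusted p under 0.05 there were 12 tiRNAs, 24.5%, against 16.4% of all tsRNAs. edgeR called 0 of the 28 tiRNAs it tested, with the authors' totals or TMM factors, and at most 0.288% of all tsRNAs. DESeq2 called 6 of 38 tiRNAs as lower and 0 as higher, against 5.87% and 1.26% of all tsRNAs. The 6 were tiRNA-His-GTG-001, tiRNA-Gly-CCC-001, tiRNA-Gln-CTG-002, tiRNA-Leu-CAG-001, tiRNA-Val-AAC-002 and tiRNA-Val-CAC-002. With the log2 library total as a covariate, limma called tiRNA-Gly-CCC-001 and tiRNA-Gln-CTG-002 as lower (0.849% of all tsRNAs) and tiRNA-Tyr-GTA-003 and tiRNA-His-GTG-004 as higher (5.23%).

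Under limma the smallest adjusted p was 0.204, shared by tiRNA-Gln-CTG-002, tiRNA-Gly-CCC-001 and tiRNA-Tyr-GTA-003. Their log2 differences were -2.53 ± 0.80, -1.92 ± 0.63 and 2.64 ± 0.91. tiRNA-Tyr-GTA-003 was at 29.3, 28.3, 48.2, 3.54 and 28.8 CPM in control, 0, 46.9, 47.1, 3.04 and 0 CPM in isoproterenol and 104, 5.03, 63, 29 and 72 CPM in restricted libraries. The isoproterenol group split into 2 libraries within the range of the controls and 3 at or near 0, and the groups overlapped. tiRNA-His-GTG-001 and tiRNA-Val-TAC-001 were lower in every restricted library than in every isoproterenol library, 2 of 49 tiRNAs (4.08%) against 0.707% of all tsRNAs. Their differences were -1.48 ± 0.55 and -0.96 ± 0.76 (limma, adjusted p = 0.226 and 0.494). None was higher in every restricted library, against 0.99% of all tsRNAs. tiRNA-Ser-GCT-001 stood at 1.09 ± 0.51 (adjusted p = 0.285).

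The level of a tiRNA was also taken relative to the tRFs of the same isoacceptor in the same library. The library total cancels from this measure, except through the pseudocount of 1. It was taken as log2(CPM + 1) of the tiRNA minus log2(CPM + 1) of the summed tRFs, and a lower value can come from a lower tiRNA or from higher tRFs. Relative to their tRFs, 16 of 49 tiRNAs were lower and 2 higher in isoproterenol than in control ventricles (limma, adjusted p under 0.05 over 703 tsRNAs). That is 32.7% and 4.08%, against 15.1% and 13.2% of all tsRNAs. For a tRF the sum held the other tRFs of its isoacceptor, so tRFs were set against their own class. Their median thus lies near 0 partly by construction, and the shares of all tsRNAs are not a like background for tiRNAs. The median was -0.89 for tiRNAs and -0.14 for all. In restricted ventricles 11 were lower and 2 higher than in control, 22.4% and 4.08% against 15.2% and 13.9%, and the median was -1.19 for tiRNAs and -0.01 for all. Restricted and isoproterenol ventricles differed in 0 tiRNAs by this measure, with 10 at an unadjusted p under 0.05 (20.4%, against 16.5% of all tsRNAs). The relative values of fragments from 1 isoacceptor share their denominators, and a tiRNA near 0 is affected by the pseudocount of 1.

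The tiRNAs of Lys-CTT were lower relative to their tRFs, while tiRNA-Lys-TTT-002, of the other lysine anticodon, differed by 0.03 and 0.68 (limma, adjusted p = 0.961 and 0.228). The 3 tiRNAs of Lys-CTT made up 67, 83.8, 77.3, 86.2 and 70% of the reads of this isoacceptor in control replicates 1 to 5. They made up 52.7, 72.9, 21.7, 9.53 and 27.8% in isoproterenol and 50.8, 30.9, 39, 33.8 and 38.8% in restricted libraries. Every restricted library was below every control library, while isoproterenol replicate 2 lay among the controls and replicate 4 was lowest of all. The tRFs of Lys-CTT summed to 1524 ± 688 CPM in control, 11734 ± 8159 CPM in isoproterenol and 5184 ± 2327 CPM in restricted ventricles. tiRNA-Lys-CTT-002, whose level did not pass on the authors' scale, differed relative to these tRFs by -2.92 ± 0.64 in isoproterenol and by -2.58 ± 0.64 in restricted ventricles (limma, adjusted p = 0.00156 and 0.00462). tiRNA-Lys-CTT-003 differed by -1.89 and -1.80, and tiRNA-Lys-CTT-004, at most 22.3 CPM in any library, by -3.01 and -2.98. tiRNA-Lys-CTT-004 passed in 3 of 10 fits with 1 library left out for either comparison, and tiRNA-Lys-CTT-003 did not pass in restricted ventricles without control replicate 2 (adjusted p = 0.0503). tiRNA-Lys-CTT-004 did not pass with a pseudocount of 0.5 or with the library total as a covariate.

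tiRNA-Ser-GCT-001 also fell relative to the tRFs of its parent. Its share of the Ser-GCT reads was 74.2, 78.3, 78.6, 85 and 77.2% in control, 54.8, 58, 43.6, 57.7 and 65.3% in isoproterenol and 54.9, 67.5, 45.8, 52.8 and 70.1% in restricted libraries. No treated library reached the lowest control. The relative difference was -1.56 ± 0.34 for isoproterenol and -1.41 ± 0.34 for restricted versus control (limma, adjusted p = 0.00165 and 0.00412). tiRNA-Leu-TAA-002 differed by -2.04 ± 0.73 relative to its tRFs in isoproterenol ventricles (adjusted p = 0.0424), did not pass with a pseudocount of 5, and passed in 3 of 10 fits with 1 library left out. tiRNA-Pro-TGG-003 did not pass by this measure, and its share of the Pro-TGG reads was 13.5% ± 1.73 in control, 12.9% ± 1.95 in isoproterenol and 14.8% ± 3.27 in the restricted group.

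**Figure D4:**
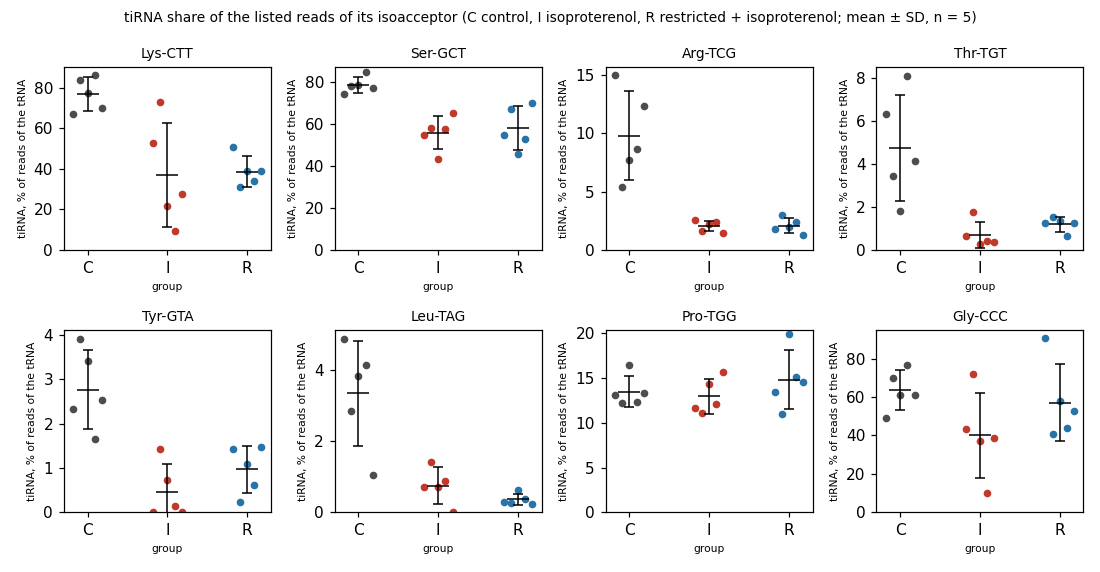
tiRNA reads as a percentage of all listed reads of the same isoacceptor in each library (points; lines mean ± SD, n = 5; C control, I isoproterenol, R restricted plus isoproterenol) for 8 isoacceptors, each with its own vertical axis starting at 0. For Ser-GCT, Arg-TCG, Thr-TGT and Tyr-GTA every treated point is below the lowest control, while for Pro-TGG the 3 groups overlap.

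Several scarce tiRNAs were lower relative to abundant tRFs. The 2 tiRNAs of Arg-TCG made up 9.79% ± 3.82 of its reads in control, 2.05% ± 0.466 in isoproterenol and 2.08% ± 0.627 in the restricted group, while the tRF sum was 278 ± 92.1, 2675 ± 2103 and 3579.9 ± 1875 CPM. tiRNA-Arg-TCG-002 differed by -2.27 ± 0.44 and -2.38 ± 0.44 (limma, adjusted p = 5.21e-04 and 3.99e-04), and tiRNA-Arg-TCG-003 by -2.54 and -2.16. With 1 library left out at a time tiRNA-Arg-TCG-003 passed in 6 of 10 fits for isoproterenol and 2 of 10 for restricted ventricles. The share of tiRNA-Thr-TGT-003 was 4.75% ± 2.46, 0.685% ± 0.614 and 1.2% ± 0.344 (relative difference -2.80 and -1.90). That of tiRNA-Leu-TAG-002 was 3.35% ± 1.48, 0.751% ± 0.511 and 0.364% ± 0.163 (-2.28 and -3.14).

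For isoproterenol and not for restricted ventricles, the relative test against control gave, besides tiRNA-Leu-TAA-002, tiRNA-Tyr-GTA-003 (-3.65), tiRNA-His-GTG-003 (-4.62), tiRNA-His-GTG-004 (-4.09), tiRNA-His-GTG-005 (-2.12), tiRNA-Gly-CCC-003 (-2.91), tiRNA-Gly-TCC-002 (-2.04) and tiRNA-Phe-GAA-002 (-2.45) as lower. Adjusted p-values by limma for these 7 ran from 9.90e-04 for tiRNA-His-GTG-004 to 0.0356 for tiRNA-Phe-GAA-002, and that of tiRNA-Leu-TAA-002 was 0.0424. None of the 7 passed in level on the authors' scale, and their mean tRF sums were higher with isoproterenol. The sums were 15559 against 1726 CPM in control for His-GTG, 3045 against 923 for Tyr-GTA and 2354 against 341 for Gly-CCC. They were 995 against 386 CPM for Gly-TCC and 490 against 328 for Phe-GAA, and were not tested. Most of these tiRNAs rest on few reads: tiRNA-His-GTG-003, tiRNA-His-GTG-004 and tiRNA-Phe-GAA-002 had 2, 3 and 2 reads in all isoproterenol libraries. With 1 library left out at a time, tiRNA-Gly-TCC-002 passed in 8 of 10 fits (not without control replicate 1 or isoproterenol replicate 5), tiRNA-Gly-CCC-003 in 7 and tiRNA-Phe-GAA-002 in 5. For restricted and not for isoproterenol ventricles the relative test gave tiRNA-Ala-TGC-002 (-2.88), tiRNA-Glu-TTC-003 (-1.70) and tiRNA-Met-CAT-003 (-2.96) as lower, with adjusted p-values of 0.00511, 0.0174 and 0.0386 (limma). None of these passed in level on the authors' scale. Their mean tRF sums were 8993 against 2041 CPM in control for Ala-TGC, 8182 against 3154 for Glu-TTC and 4835 against 1429 for Met-CAT. tiRNA-Met-CAT-003 had 6 reads in control and 1 in restricted libraries and passed in 2 of 10 fits with 1 library left out, and tiRNA-Glu-TTC-003 did not pass without control replicate 4 (adjusted p = 0.0589). That a tiRNA passed against control in 1 treated group and not in the other does not show a difference between them, and none passed in the direct comparison. With the log2 library total as a covariate 3 did, tiRNA-Met-CAT-002 and tiRNA-Gln-CTG-002 as lower and tiRNA-His-GTG-004 as higher in restricted ventricles.

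The tiRNAs that were higher relative to their tRFs were tiRNA-Val-TAC-001 in both comparisons with control (3.98 ± 0.69 and 2.50 ± 0.69; limma, adjusted p = 1.79e-04 and 0.00957), tiRNA-Gln-TTG-001 in isoproterenol (4.76 ± 1.33, adjusted p = 0.0105) and tiRNA-Gln-TTG-003 in restricted ventricles (1.84 ± 0.65, adjusted p = 0.0386). tiRNA-Gln-TTG-003 passed in 3 of 10 fits with 1 library left out. The 2 tiRNAs of Gln-TTG made up 10.1% ± 4.65 of its reads in control, 19.6% ± 10.5 in isoproterenol and 27% ± 7.56 in the restricted group. The tRF sum of this isoacceptor was 10586 ± 1540.0, 6160.1 ± 1567 and 5949 ± 1756 CPM in the same order.

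In some isoacceptors 1 tiRNA passed and others did not, and 3 such isoacceptors are described here. Both tiRNAs of Val-CAC, in contrast, rose with isoproterenol (4.23 and 2.12 on the log2 scale). Of the 4 histidine tiRNAs, tiRNA-His-GTG-001 rose with isoproterenol, while tiRNA-His-GTG-003, tiRNA-His-GTG-004 and tiRNA-His-GTG-005 stood at -1.57, -1.04 and 0.94 on the log2 scale with adjusted p-values of 0.168, 0.315 and 0.222 (limma). In restricted ventricles tiRNA-His-GTG-004 was at 48.8, 7.55, 27, 18.1 and 4.5 CPM, against 0, 7.81, 9.43, 3.04 and 0 CPM in isoproterenol libraries. For glutamine, tiRNA-Gln-TTG-001 rose with isoproterenol and the far more abundant tiRNA-Gln-TTG-003 was at 1731, 1051, 1447, 384 and 1229 CPM in control and 1069, 2906, 2206, 1144 and 149.6 CPM in isoproterenol libraries. For valine, tiRNA-Val-TAC-001 rose while tiRNA-Val-TAC-004 was at 152 ± 77.6 CPM in control, 212 ± 135 CPM in isoproterenol and 342 ± 196 CPM in restricted ventricles (limma, adjusted p = 0.742 and 0.0872 against control). tiRNA-Val-TAC-002 was at 18.7 ± 7.6, 19.0 ± 9.62 and 33.8 ± 20 CPM in the same order (limma, adjusted p = 0.959 and 0.345 against control). Differences between members of 1 isoacceptor were not tested.

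**Figure D5:**
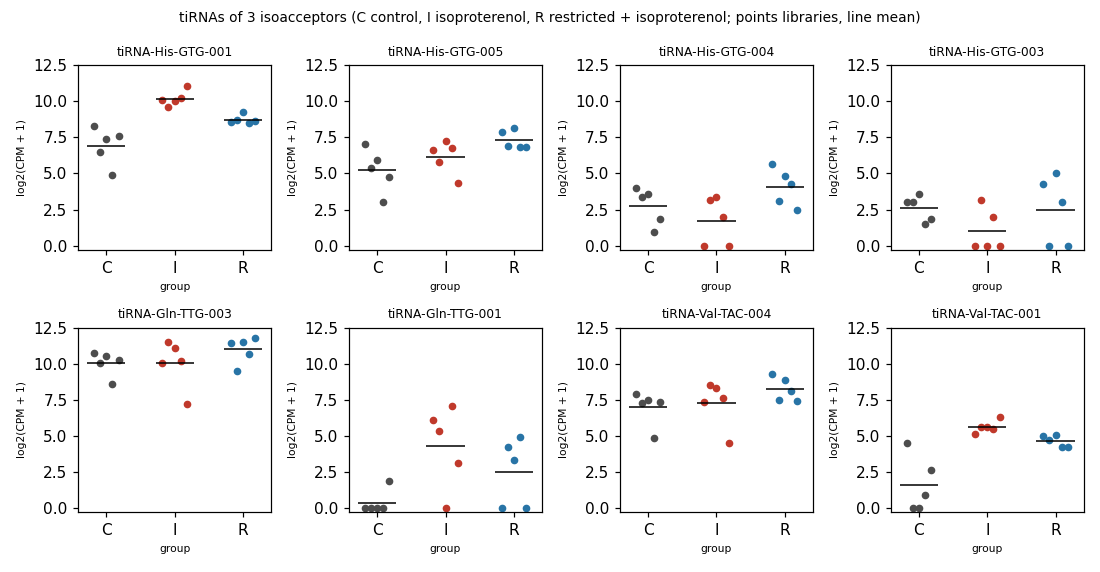
log2(CPM + 1) of 8 tiRNAs of the isoacceptors His-GTG, Gln-TTG and Val-TAC in each library (points; line, group mean; C control, I isoproterenol, R restricted plus isoproterenol). tiRNA-Val-TAC-002 is not drawn. tiRNA-His-GTG-001 forms 3 groups without overlap, and tiRNA-Gln-TTG-001 is at 0 in 4 of the 5 controls.

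The anticodon was a further property that the selection did not use. Mammalian mitochondria encode their own tRNAs, and 32 of the 49 tiRNAs carry an anticodon that mitochondrial tRNAs also have, although nuclear tRNAs carry many of these anticodons too. Of these 32, 7 rose and 4 fell with isoproterenol (limma), with a median difference of -0.05. Of the 17 with anticodons of nuclear tRNAs only, 7 rose and 0 fell, with a median of 1.61. Of all tsRNAs, 35.5% rose and 12.4% fell, so few falls would be found among 17 members at that share. All 4 tiRNAs that fell carried anticodons shared with mitochondrial tRNAs, as did 32 of all 49 tiRNAs. Among tRFs, 124 of 403 were higher and 79 lower in the first list, and 113 of 255 higher and 5 lower in the other (medians 0.77 and 1.56). With median-of-ratios scaling 4 of the 32 tiRNAs were higher and 14 lower, and 2 of the 17 higher and 0 lower (medians -1.24 and 0.67). Of all tsRNAs 16.1% were then higher and 19.7% lower. Among tRFs this scaling gave 64 higher and 118 lower of 403, and 44 higher and 7 lower of 255. In restricted ventricles 47.7% of all tsRNAs were higher and 10.7% lower than in control (limma, authors' scale). Among the 32 tiRNAs 4 rose and 3 fell there, and 2 rose and 0 fell among the 17. With median-of-ratios scaling this became 9 lower among the 32 and 5 lower among the 17, with 0 higher in both, so the absence of lower nuclear-only tiRNAs depended on the scaling there. Among tRFs it gave 62 higher and 122 lower of 403, and 45 higher and 10 lower of 255. Of all tsRNAs it gave 15.1% higher and 20.7% lower. The table does not say which of these tiRNAs came from mitochondria, and the lists were not set against each other in a test.

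The tsRNAs whose levels ran most closely with tiRNA-Ser-GCT-001 were ranked by Pearson's r of log2(CPM + 1), taken as deviations from the group means over 15 libraries. The nearest 3 were tRFs of the same parent, tRF-Ser-GCT-001 (r = 0.919), tRF-Ser-GCT-035 (r = 0.887) and tRF-Ser-GCT-034 (r = 0.837), followed by tRF-Pro-TGG-016 (r = 0.803) and tRF-Leu-TAA-025 (r = 0.802). Values of 1 library share its total, and control replicate 4 held both the highest serine tiRNA level and the largest total. Among the 20 most abundant tiRNAs the closest pairs by the same measure were tiRNA-Glu-TTC-001 with tiRNA-Glu-TTC-002 (r = 0.972), tiRNA-Lys-TTT-002 with tiRNA-Gln-TTG-003 (r = 0.959) and tiRNA-Gly-GCC-001 with tiRNA-Gly-CCC-002 (r = 0.901). The lowest value was that of tiRNA-Ser-GCT-001 with tiRNA-Glu-TTC-001 (r = -0.721).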

How the data were processed

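Small RNA libraries were made from total RNA of left ventricle that had been pretreated to remove modifications which block library construction, and gel-purified products of 134 to 160 bp held inserts of 14 to 40 nt, per the labels' protocols. Reads shorter or longer than this range are not represented, which limits the tiRNAs that can be seen. The authors deposited CPM values for 714 tsRNAs in 15 libraries (3 groups of 5 rats). Per the submitters' processing notes, the tools were cutadapt and edgeR, with no version or role stated. Not given in the sources used here are the aligner, tRNA reference, build and treatment of reads matching several tRNAs.

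The tests had been set out for either counts or CPM, and the CPM form was used. Values of log2(CPM + 1) of the 707 tsRNAs that reached 1 CPM in 5 or more libraries entered 1 limma model (eBayes, trend) with all 15 libraries and 3 groups. Fold changes on this scale understate the change of low tsRNAs. The relative test used 703 tsRNAs. Tests were two-sided, adjusted by the Benjamini-Hochberg method over all tsRNAs tested, with a threshold of 0.05. Whole reads recovered from the CPM values (100% whole within 0.001 reads) were tested with edgeR's quasi-likelihood test and DESeq2 as alternatives. Of 347 tsRNAs, edgeR called 186 higher and 50 lower for isoproterenol versus control. Other alternatives changed the scaling, pseudocount, filter, covariate, block and libraries. The rule for named tiRNAs took those that passed in any comparison of the 2 limma models on the authors' scale and the 10 most abundant. tiRNA-Val-TAC-002, tiRNA-Val-TAC-004 and tiRNA-Lys-TTT-002 were named after their values were seen. The members, lists and tests were chosen with earlier results of these data known. The tests, tried first on simulated data, ran in DESeq2 1.42.0, edgeR 4.0.16 and limma 3.58.1 under R 4.3.3.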

Additional observations from a re-analysis of the deposited data

Results flagged for a closer look

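A library was flagged when set apart from the other 4 by more than 0.71 of its group's range (Dixon's criterion). Chance gives about 1 in 20 for independent groups of normally distributed values. The groups here share libraries, and a single read among 4 values of 0 is always flagged, so that rate does not apply. Of 123 groups of 5 libraries, 15 held a flagged library. Control replicate 4 accounted for 4 of them: tiRNA-Ser-GCT-001 at 53100 CPM (group median 18650), the summed tiRNA level of 65920 CPM (median 34330), the tiRNA share of 26.15% of listed reads (median 12.42%) and tiRNA-Lys-CTT-003 at 288.8 CPM (median 513.7). It was also the library with the largest total, 1128887 reads. Restricted replicate 3 was high for tiRNA-His-GTG-001 (599 CPM, median 391.3), tiRNA-Val-AAC-002 (234.2 CPM, median 79.62), tiRNA-Val-CAC-001 (54.04 CPM, median 7.238) and tiRNA-Met-CAT-003 (4.504 CPM, 1 read, median 0). Restricted replicate 1 was high for tiRNA-Gly-CCC-002 (6263 CPM, median 742).

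Isoproterenol replicate 1 was high for tiRNA-Gly-CCC-001 (504.8 CPM, median 113.1), replicate 2 for tiRNA-Thr-TGT-003 (39.07 CPM, median 7.424) and replicate 5 for tiRNA-Met-CAT-002 (1479 CPM, median 242.2). Among the controls, replicate 1 was high for tiRNA-Val-TAC-001 (21.96 CPM, median 0.8858), and replicate 5 held the single control read, 2.621 CPM, of both tiRNA-Gln-TTG-001 and tiRNA-Asp-GTC-002.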

How the results depend on the processing

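Under all alternatives and without any single library, 9 of the 18 calls of level held for isoproterenol versus control and 3 of 9 for restricted versus control. The same was true of 12 of 18 and 7 of 13 relative calls. Where counts moved by over 1.5 times, the cause was not tested. The 18 calls of level for isoproterenol became 8 with edgeR and TMM factors, which tested 28 tiRNAs. Restricted versus isoproterenol gave 4 with the log2 library total as a covariate and 6 with DESeq2 against 0, and 3 against 0 in the relative test with the covariate. Restricted versus control gave 14 with median-of-ratios scaling and 17 with DESeq2 against 9, and in the relative test 20 with a pseudocount of 5 and 22 with only the groups compared against 13. Without control replicate 4 it gave 8. Restricted versus control reversed for tiRNA-Glu-TTC-001 with TMM factors (-0.0079) and for tiRNA-Gly-GCC-001 with median-of-ratios scaling (-0.17), TMM factors (-0.49) and DESeq2 (-0.53).

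Leaving out 1 library at a time gave 17 to 21 calls of level for isoproterenol against control, 7 to 12 for restricted against control and 0 between the treated groups, and 14 to 19, 8 to 12 and 0 relative calls. The difference in tiRNA share from control was -1.51 points for isoproterenol and -1.43 for restricted ventricles when tiRNA-Ser-GCT-001 was left out, from -10.04 and -9.611. Same-numbered libraries of different groups did not deviate together (1 of 15 correlations over 0.1, range -0.12 to 0.25, own number best in 3 of 15). A fit with the replicate number as a block gave, in the same order of comparisons, 19, 12 and 0 calls of level and 17, 11 and 0 relative calls. With 1 read worth up to 9.43 CPM, differences of tiRNAs at a few CPM could not be resolved.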
